A study of Arabidopsis thaliana with 3 samples.

Results

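The B-box (BBX) family of Arabidopsis thaliana comprises 32 genes, BBX1 to BBX32, taken here by their TAIR10 loci. They were set beside all 27444 nuclear protein-coding genes of the RefSeq table. The family was selected on a measured result: it was put together with the fold enrichments of these libraries known, among them a strong peak beside BBX28. Its counts are therefore descriptions and carry no test. A gene was counted where a peak summit lay inside its span or up to 1000 bp outside either end.

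The libraries came from chromatin immunoprecipitation and sequencing (ChIP-seq) of AtSDR4L, an Arabidopsis relative of the rice seed dormancy factor SDR4, through a haemagglutinin (HA) tag. The induced group comprised 2 biological replicates of whole AtSDR4L-HA seedlings on medium with 1 µM β-estradiol, and the control was 1 library from uninduced AtSDR4L-HA seedlings on medium without it. All groups carried the same tagged transgene, grew in long days, were harvested on day 4 and were precipitated with the same HA antibody. The sources used here name neither the number of independent transgenic lines nor the level of induced protein, and whole seedlings mix all cell types.

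B-box proteins are zinc-finger transcription factors and cofactors. Many act downstream of photoreceptors. Some work with the bZIP factor HY5 to promote light-driven seedling development (photomorphogenesis). Others bind HY5 or its partners and hold that programme back, and CONSTANS (CO) activates the florigen gene FT in long days. They are grouped by the number of B-boxes and by whether a CCT domain, a DNA-binding module shared with clock proteins, follows.

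The authors called the peaks of each induced replicate separately, over the 1 uninduced control. Replicate 1 had 9811 nuclear peaks and replicate 2 had 3423. Fold enrichment throughout is the authors' value at a summit over that control, and q is their false discovery estimate. The files hold no read counts, so depth is unknown and no counting error can be attached to a fold. The lowest −log10 q listed was 1.00 in each list, so a gene with no summit had no peak past that limit, which is not the same as no binding. The authors' deposited table of irreproducible discovery rates (IDR), an estimate of how often regions of that rank fail to repeat, held 1776 nuclear regions matched between the replicates. The folds of both replicates share that 1 control library, so anything particular to it enters both lists.

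In replicate 1, 23 of the 32 BBX genes (71.9%) had a summit in their window, against 36.5% of all coding genes. In replicate 2, 13 of 32 (40.6%) did, against 13.8% of all coding genes. All 13 were also among the genes of replicate 1, which gave 40.6% in both lists, against 9.00% of all coding genes. The table of matched regions placed a region at 12 of 32 (37.5%), against 7.09% of all coding genes, and a region with an IDR of at most 0.05 at 4 of 32 (12.5%), against 0.506%. The members' spans were not longer on the median, at 1828 bp, against 2078 bp for all coding genes. Inside the spans lay 18 of 44 member summits in replicate 1 and 4 of 15 in replicate 2. Over all coding genes, 37.0% and 50.1% of the summits in a window lay inside the span. Whether the space between neighbouring genes bears on the counts was not tested.

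**Figure D1:**
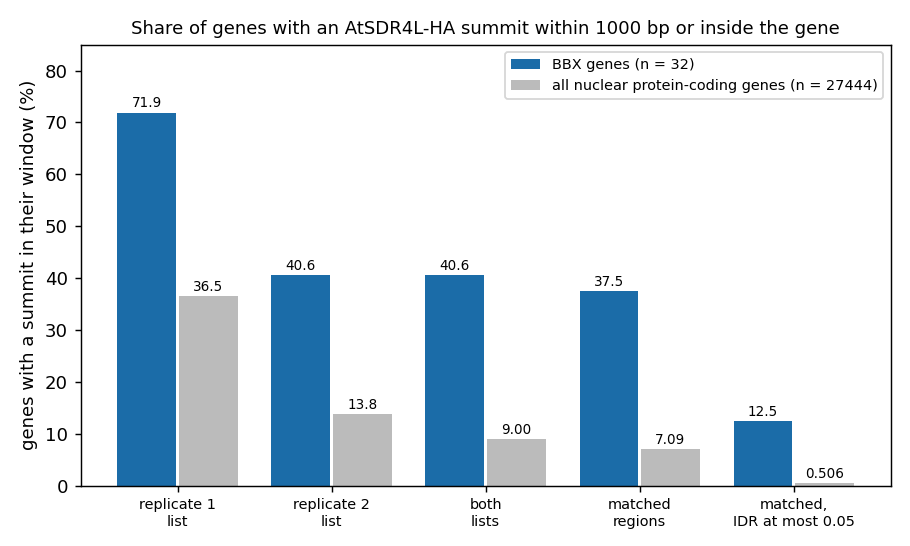
Percentage of genes with an AtSDR4L-HA summit inside the gene or within 1000 bp of either end (vertical axis) under 5 rules (horizontal axis), for the 32 BBX genes (blue) and all 27444 nuclear protein-coding genes (grey). The BBX share is above the share of all genes under each rule, from 71.9% against 36.5% in the replicate 1 list to 12.5% against 0.506% for matched regions with an IDR of at most 0.05.

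The 4 genes past that IDR limit were BBX28, BBX7, BBX29 and BBX15. BBX28 (AT4G27310), a single-B-box protein that binds HY5 and restrains photomorphogenesis, had the strongest region of the family at chr4:13674395-13675351. Its fold was 6.45 in replicate 1 and 4.50 in replicate 2 (mean 5.48 ± 1.38, SD, n = 2), with an IDR of 0.000478. The 2 summits lay 7 bp apart and outside the gene span, and no other coding gene had them in its window. By mean fold this region ranked 2 among the 1776 matched regions.

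BBX7 (AT3G07650, COL9), which delays flowering by lowering CO and FT expression, had a region at chr3:2440841-2441688. Its fold was 4.72 in replicate 1 and 3.13 in replicate 2 (mean 3.93 ± 1.12, SD, n = 2), with an IDR of 0.00162, and it ranked 34 by mean fold. BBX29 (AT5G54470), the closest relative of BBX28, had a region at chr5:22115683-22116172. Its fold was 5.52 in replicate 1 and 2.95 in replicate 2 (mean 4.24 ± 1.82, SD, n = 2), with an IDR of 0.00613, and it ranked 20. The fold of replicate 1 over replicate 2 was 1.87 at BBX29 and 1.43 at BBX28. In the replicate 1 list BBX29 stood at rank 14 and BBX28 at rank 2. In the replicate 2 list BBX29 stood at rank 115 and BBX28 at rank 6.

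BBX15 (AT1G25440, COL16), with 1 B-box and a CCT domain, had a region at chr1:8935378-8935783 with folds of 3.24 in replicate 1 and 2.77 in replicate 2 (mean 3.00 ± 0.333, SD, n = 2). Its IDR of 0.0364 was the nearest inside the limit of 0.05. BBX22 (AT1G78600, LZF1), which promotes photomorphogenesis together with HY5, was the nearest outside it with an IDR of 0.0524. The BBX22 region at chr1:29566205-29567126 had folds of 2.65 in replicate 1 and 2.12 in replicate 2. Its summits lay outside the BBX22 span and closer to NADK3, an NAD kinase gene.

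**Figure D2:**
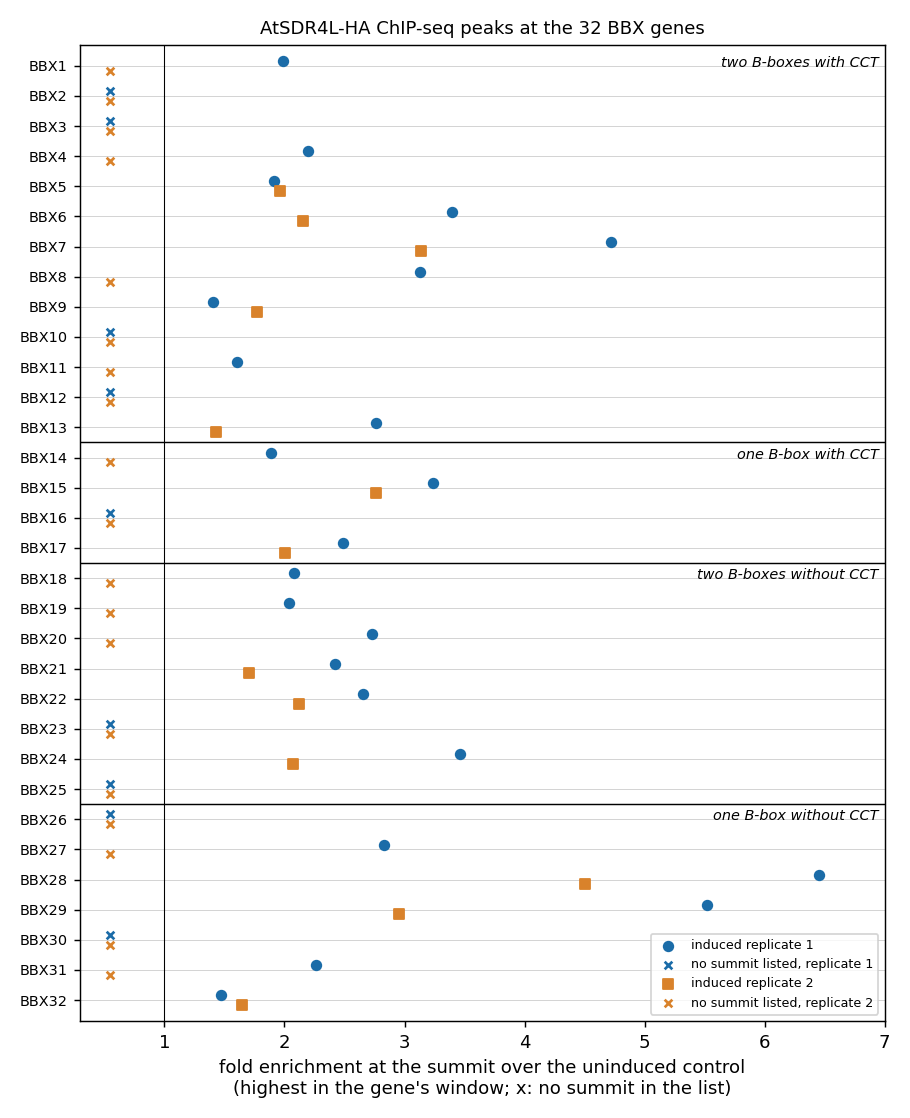
Fold enrichment over the uninduced control (horizontal axis) at the strongest summit in the window of each of the 32 BBX genes (vertical axis), for induced replicate 1 (blue circles) and induced replicate 2 (orange squares), with crosses where a list has no summit. BBX28, BBX29 and BBX7 stand apart in replicate 1 at 6.45, 5.52 and 4.72. Of the 32 genes, 23 have a summit in replicate 1, against 36.5% of all coding genes, and 13 in both lists, against 9.00%.

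Among the 13 genes with 2 B-boxes and a CCT domain, which include CO and its nearest relatives, 9 had a summit in replicate 1 and 5 of these also in replicate 2. For this and the other structural groups, the shares of all coding genes to read the counts against are 36.5% in replicate 1 and 9.00% in both lists. BBX7 led the group. BBX6 (AT5G57660, COL5) had 2 peaks in replicate 1, and the stronger summit, inside the gene, had a fold of 3.39 against 2.16 at a summit 3 bp away in replicate 2. BBX5 (AT5G24930, COL4) had nearly equal folds of 1.91 and 1.96 at chr5:8589259-8589801, and an IDR of 0.222. These BBX5 values are low, and the region ranked 991 by mean fold.

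BBX13 (AT1G28050) had 2.76 in replicate 1 and 1.43 in replicate 2, with summits 342 bp apart, and the replicate 2 peak, at a −log10 q of 1.03, only just entered its list. BBX9 (AT4G15250) had 1.41 in replicate 1 and 1.37 at the closest summit of replicate 2, 111 bp away, where a stronger summit of the same replicate 2 peak had 1.77. Both genes shared the highest IDR of the authors' deposited table, 0.649, a value held by 36.2% of its regions. At BBX9 that IDR rests on the weaker replicate 2 summit.

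CO itself (BBX1, AT5G15840) had 1 peak, in replicate 1, with a fold of 1.99 at chr5:5169834-5170185. Its tandem neighbour BBX2 (AT5G15850, COL1) and BBX3 (AT3G02380, COL2) had no summit in either list. BBX4 (AT2G24790, COL3), a positive regulator of photomorphogenesis, had 2.19 in replicate 1 only, and BBX11 (AT2G47890) had 1.61 in replicate 1 only. BBX8 (AT5G48250, COL10) had the highest fold of all members seen in 1 list only, 3.13 with a −log10 q of 27.1 in replicate 1. BBX10 (AT3G21880) and BBX12 (AT2G33500) had no summit in either list.

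Of the 4 genes with 1 B-box and a CCT domain, 3 had a summit in replicate 1 and 2 in both lists. Besides BBX15, BBX17 (AT1G49130, COL8) had 2.49 in replicate 1 and 2.01 in replicate 2 at summits 19 bp apart. BBX15 had a further peak at its other end, at chr1:8933151-8933680, with a fold of 2.76 and a −log10 q of 56.9 in replicate 1 and no counterpart in replicate 2. That q was stronger than the 29.4 of the BBX15 peak that was found in both lists. BBX14 (AT1G68520, COL6) showed the same kind of peak, with a fold of only 1.89 but a −log10 q of 52.5 in replicate 1 and none in replicate 2, and its main summit lay in an overlap with LBD42. BBX16 (AT1G73870, COL7) had no summit.

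Of the 8 genes with 2 B-boxes and no CCT domain, which include most of the HY5 cofactors, 6 had a summit in replicate 1 and 3 in both lists. BBX24 (AT1G06040, STO), which interferes with HY5, had 3.46 in replicate 1 and 2.07 in replicate 2 at chr1:1829624-1830501, inside the gene, with an IDR of 0.0965. BBX21 (AT1G75540), an activator of HY5 expression, had 2.42 in replicate 1 and 1.70 in replicate 2 at summits 51 bp apart. Together with BBX22 these were the members of the group found in both lists.

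BBX20 (AT4G39070, BZS1), which links brassinosteroid and light signals, had 3 peaks in replicate 1 with folds of 2.18, 2.73 and 2.37, and none in replicate 2. BBX19 (AT4G38960), a repressor of flowering and of photomorphogenesis, had 4 peaks in replicate 1, between 1.44 and 2.04, and none in replicate 2. The outermost BBX19 peaks had AT4G38950 and FBA2 as their nearest genes. BBX18 (AT2G21320) had 2.08 in replicate 1 only. BBX23 (AT4G10240) and BBX25 (AT2G31380, STH), the closest relative of BBX24, had no summit in either list.

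**Figure D3:**
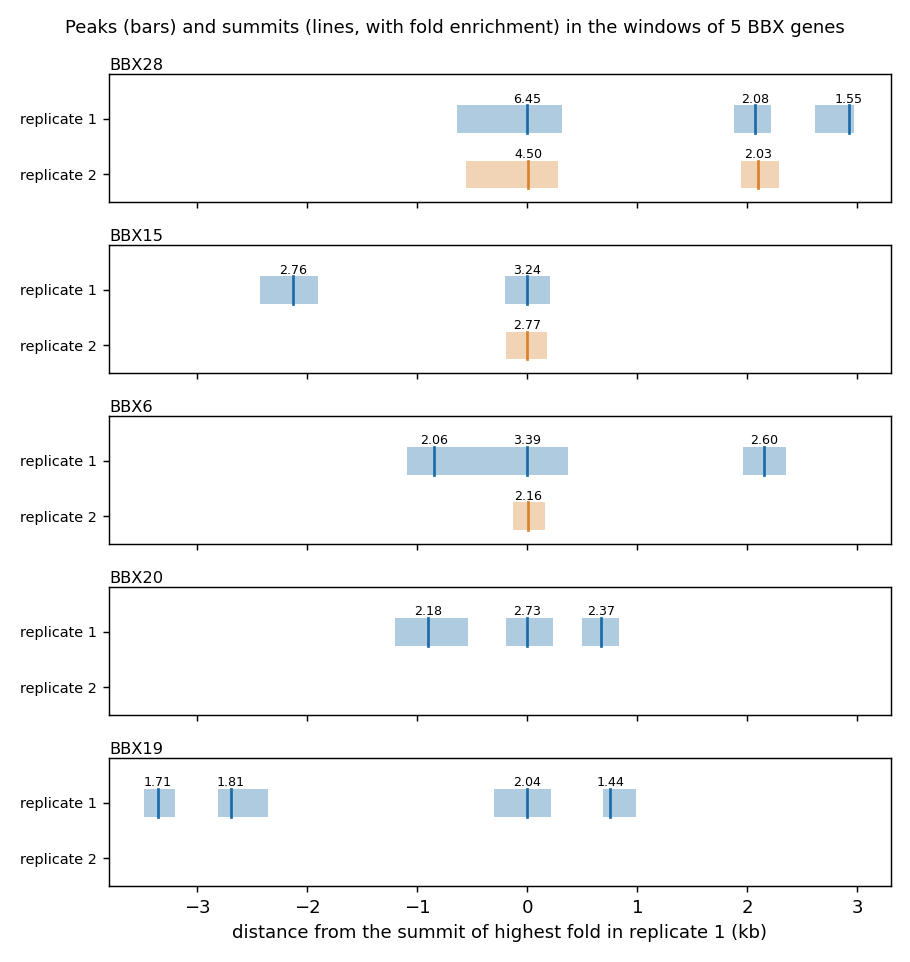
Peaks (bars) and their summits (lines, labelled with fold enrichment) in the windows of 5 BBX genes, as distance in kb from the strongest replicate 1 summit (horizontal axis), for induced replicate 1 (blue) and induced replicate 2 (orange). The strongest summits of BBX28, BBX15 and BBX6 recur in replicate 2 within 7, 5 and 3 bp, whereas the 3 peaks of BBX20 and the 4 of BBX19 are listed in replicate 1 only.

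Of the 7 genes with 1 B-box and no CCT domain, 5 had a summit in replicate 1 and 3 in both lists. BBX28 and BBX29 were described above, and BBX28 had a second region at chr4:13676908-13677318, on its other side, with folds of 2.08 in replicate 1 and 2.03 in replicate 2 and an IDR of 0.213. A further BBX28 peak, nearer to PHOS34, had 1.55 in replicate 1 only. BBX28 thus had 3 peaks in its window in replicate 1 and 2 in replicate 2.

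BBX32 (AT3G21150), which binds BBX21 and reduces its activity, was counted in both lists, but on peaks that did not overlap. Its replicate 1 peak at chr3:7412542-7412811 had a fold of 1.47 and its replicate 2 peak at chr3:7412034-7412434 had 1.64, so it had no matched region. The replicate 2 summit lay nearer to AT3G21140. The microprotein gene BBX31 (AT3G21890, miP1a), whose product ties CO to the corepressor TOPLESS, had 2.26 in replicate 1 only, and its partner in that role, BBX30 (AT4G15248, miP1b), had no summit. BBX27 (AT1G68190) had 2.83 in replicate 1 only, at a summit nearer to AT1G68200. BBX26 (AT1G60250) had no summit in either list.

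No summit fell in the windows of more than 1 member, although BBX1 and BBX2, BBX9 and BBX30, and BBX10 and BBX31 are neighbours on their chromosomes. By the merged summit of the authors' deposited table, 4 of the 13 matched regions at the 12 genes had their summit inside the gene span, 8 within 500 bp outside it and 1, the strong BBX28 region, farther out. The replicates' own summits fell on either side of these steps at BBX28, where that of replicate 2 lay within 500 bp, and at BBX5, where that of replicate 1 lay outside the span. The gene table gives no strand, so start and end of a gene cannot be told apart here. Another coding gene also had the summit in its window at the regions of BBX17, BBX21, BBX22 and BBX24. Neither the places nor the neighbouring genes were counted over all matched regions, so no share stands beside these values.

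Within these 13 regions the fold was higher in replicate 1 than in replicate 2 at 12, the exception being BBX5, and 75.8% of all matched regions showed the same order. The median fold at member regions was 2.76 in replicate 1 and 2.07 in replicate 2, beside 2.21 and 1.78 over all matched regions. The closest summits of the replicates lay within 100 bp of each other at 11 of the 13, beside 79.0% of all matched regions. The 10 genes found in replicate 1 only had a highest fold between 1.61 and 3.13, with a median of 2.14, which overlaps the range of the genes found in both lists. To read that count against, 36.5% of all coding genes had a summit in replicate 1 and 9.00% in both lists.

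**Figure D4:**
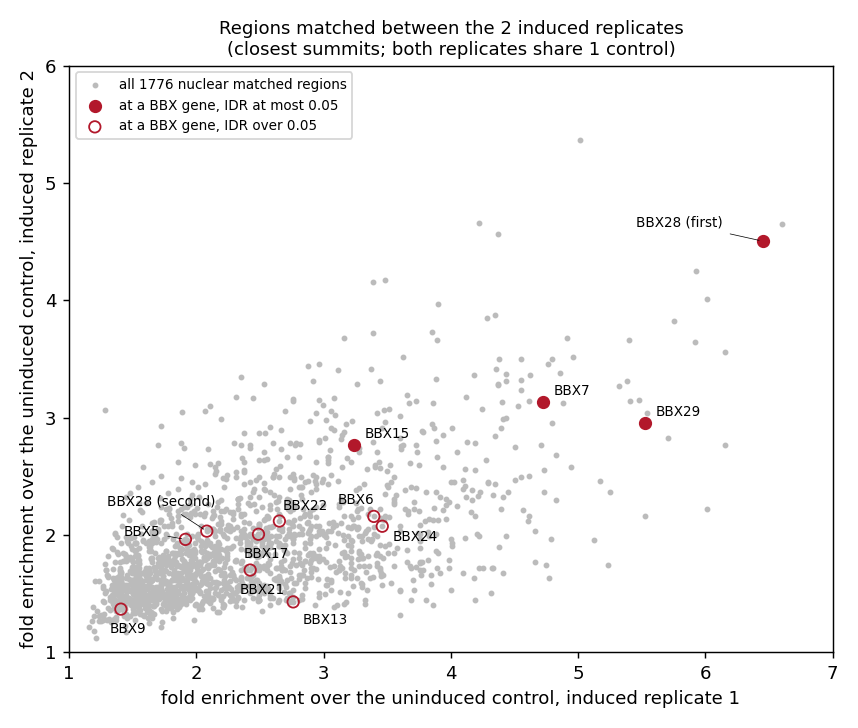
Fold enrichment over the uninduced control in induced replicate 1 (horizontal axis) and induced replicate 2 (vertical axis) at the closest summits of each of the 1776 nuclear matched regions (grey) and of the 13 regions at BBX genes (red, filled where the IDR is at most 0.05). The first BBX28 region lies at the upper right at 6.45 and 4.50, BBX29 and BBX7 follow, and the remaining BBX regions lie within the cloud of all regions.

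The IDR of a member did not always rest on its strongest summit. BBX9 was 1 such case, on the replicate 2 side. At BBX6, BBX17 and BBX21 the replicate 1 peak had 2 summits, and the q in the authors' deposited table belonged to the weaker one, with folds of 2.06, 1.61 and 1.35 in place of 3.39, 2.49 and 2.42. Their IDRs were 0.219, 0.406 and 0.649. Over all nuclear regions where a peak of either list had several summits, the q-values in the table were not those of the closest summits at 494 of 637 (77.6%). Where 2 folds stand side by side for a matched region, they are those of the closest summits, a choice made after the values were seen, and no IDR was recomputed.

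A list of 32 genes that act with BBX proteins gave counts similar to those of the family. This list too was chosen with earlier results of these data known, so its counts are descriptions and carry no test. The list holds light receptors, the COP1/SPA complex that degrades BBX proteins, HY5, the PIF factors, and regulators and partners of CO. Of these genes, 27 (84.4%) had a summit in replicate 1, 10 (31.2%) in replicate 2 and in both lists, and 4 (12.5%) a region with an IDR of at most 0.05, against the shares of all coding genes given above. The 4 were CDF5, a DOF-type repressor of CO (4.35 in replicate 1 and 3.41 in replicate 2), NF-YB2, a subunit of the complex that brings CO to FT (2.54 and 2.39), and the corepressor genes TPL (2.57 and 1.75) and TPR1 (2.17 and 2.24).

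Of the regulators of CO, GI, CDF2 and CDF5 had a summit in both lists. GI, which with FKF1 removes the CDF repressors of CO, had folds of 5.40 in replicate 1 and 3.66 in replicate 2, which in replicate 2 lies between BBX28 (4.50) and BBX7 (3.13). In the authors' deposited table its IDR was 0.428, with the q of a weaker replicate 1 summit whose fold was 1.92. FKF1 (1.92), CDF1 (2.49) and CDF3 (2.10) had a summit in replicate 1 only, and CDF2 had 2.53 and 1.89. The florigen genes FT and TSF had no summit in either list. SOC1, which acts after them, had 2.40 in replicate 1 only, at a summit nearer to AGL6.

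On the light side, HY5 had a fold of 2.58 in replicate 1 only, at a summit nearer to OCP3, and its homologue HYH had 1.52 in replicate 1 only. COP1 (1.50), SPA1 (2.44), SPA3 (1.45), PHYA (1.79), PHYB (1.65), CRY1 (1.81) and CRY2 (1.39) likewise had summits in replicate 1 only, and of the COP1/SPA genes only SPA4 was found in both lists (1.97 and 1.74). PIF4 (3.75 and 2.60), PIF5 (3.48 and 2.96) and PIF3 (2.74 and 2.20), factors that promote growth in darkness, were found in both lists. PIF1 was found in replicate 1 only, with 1.91 at a summit nearer to AT2G20170 and 1.82 at a summit inside its span. SPA2, NF-YC9 and CHS, an anthocyanin pathway gene activated by HY5, had no summit in either list.

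**Figure D5:**
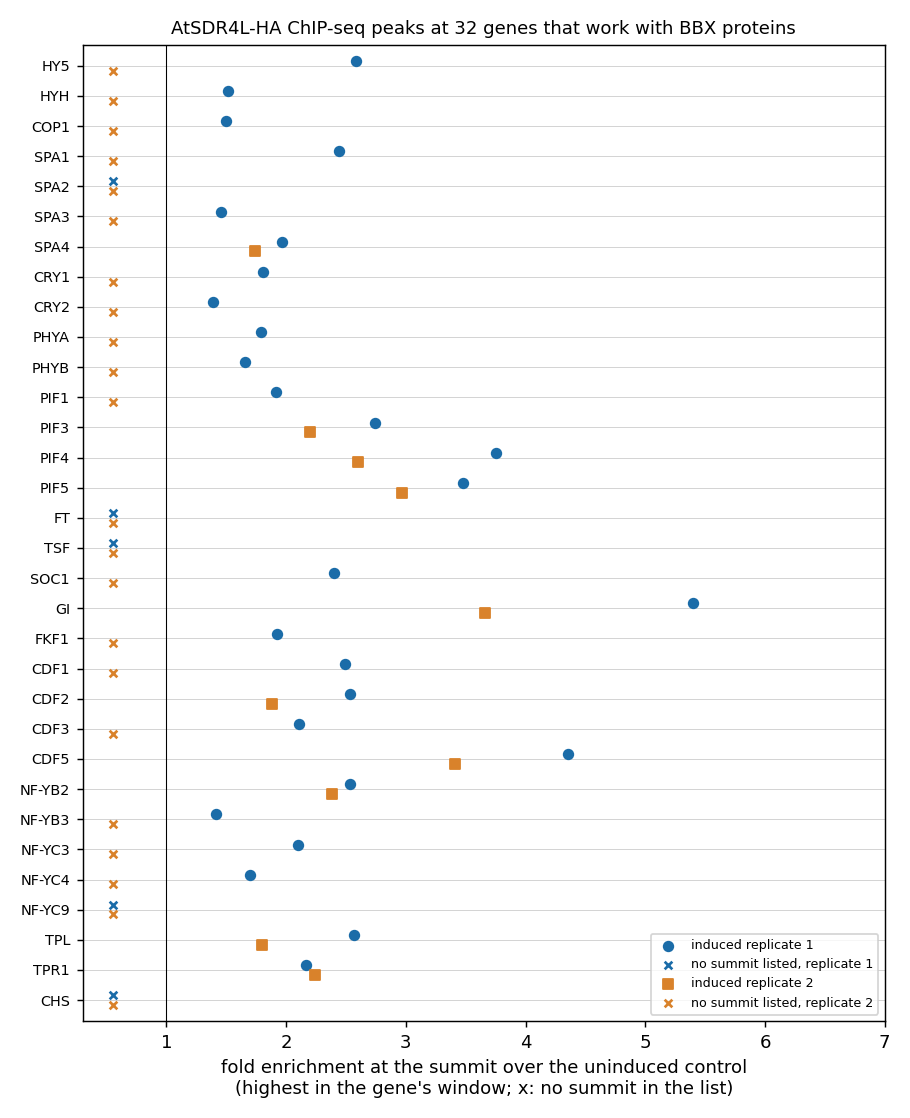
Fold enrichment over the uninduced control (horizontal axis) at the strongest summit in the window of each of 32 genes that work with BBX proteins (vertical axis), for induced replicate 1 (blue circles) and induced replicate 2 (orange squares), with crosses where a list has no summit. GI and CDF5 have the highest folds, at 5.40 and 4.35 in replicate 1. Of the 32, 10 have a summit in both lists, against 9.00% of all coding genes.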

How the data were processed

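ChIP-seq was made from 2 induced and 1 uninduced library. Reads were aligned to TAIR10 with Bowtie2 2.3.5.1, per the submitters' processing notes, and peaks were called per induced replicate against the uninduced library with MACS2 2.2.7.1, per the series' design text. Duplicate filters and the version of the IDR program were not given in the sources used here. In the deposited form the lists hold, per summit, a fold enrichment ratio, −log10 p and q values and a score. The deposited IDR table holds a scaled score and −log10 IDR values per matched region, and its columns are not tied to a replicate by any header.

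Each summit row was given to every nuclear protein-coding gene whose span, extended by 1000 bp at both ends, held it (27444 genes, RefSeq TAIR10.1). Since the files name TAIR10, that table served only for names and neighbourhood, and none of its coordinates are printed. It held no strand or sequence, so the planned motif counts and distances from gene starts were not made and no sequence is shown. All 32 loci matched. Folds of matched regions come from the peak lists, at the closest pair of summits. With the table's q-values (tolerance 0.001) the folds of all 1776 nuclear regions were also found. The assignment was tested on simulated data: 200 of 200 planted summits were recovered among 27444 genes.

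Members, structural groups and the list of partner genes were chosen with earlier results of these data known. All members are named, as the rule for named genes required. No test was run, because the members were selected on these peaks and the only other library is the shared control. Alternatives covered the window, summit and nearest-gene rules, thresholds on q and IDR, and each replicate alone. Python 3.11.15, pandas 2.3.3, numpy 2.4.6 and matplotlib 3.10.9 were used.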

Additional observations from a re-analysis of the deposited data

How the results depend on the processing

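Under 22 of 29 alternatives the results stayed close to the reported ones (counts within 1.5 times), and under 7 a count moved by more. With the gene body alone the count was 13 in replicate 1 (16.1% of all coding genes) and 4 in replicate 2 (6.81%). With −log10 q of at least 10, the count was 7 in replicate 2 (4.48%). By IDR limit, the authors' deposited table placed matched regions at 3 genes for 0.01 (0.157%), 4 for 0.05 (0.506%) and 6 for 0.1 (0.893%), which are smaller sets by construction. The count for both lists was 13 to 23 when either replicate was left out, the list of replicate 1 alone giving 23. Under the alternatives that moved a count, the family's share still lay above that of all coding genes.

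With windows of 2000 bp, BBX12 (1.77) and BBX25 (1.42) were added to replicate 1, just outside the reported window. The count for both lists was again 13, while the share of all coding genes was 12.6% in place of 9.00%. Matched regions then lay at 13 members in place of 12, against 9.67% of all coding genes. When only the nearest gene of a summit counted, 11 genes had a summit in both lists (6.17% of all coding genes). With the summits paired by the IDR table, the median fold of member regions in replicate 1 was 2.65 in place of 2.76 and that of replicate 2 was 2.07 again. No paired analysis was possible because no group but the induced one has replicates. The peak lists show only regions past their q limit, so how far the smaller number of peaks in replicate 2 limits its counts was not tested.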
